A study of Mus musculus with 16 samples.

Results

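Cytosolic ribosomal protein genes were described in mesenchyme of the mouse lower urinary tract, the tissue under the epithelial lining that forms muscle and connective tissue. Genes were taken by name, as rows named Rps or Rpl and a number, with at most a short suffix, and by level, as rows with a mean of at least 1 CPM, the count scaled to a common library size, over the 16 libraries. Of 55228 gene symbols in the count table, 85 had such a name and 81 passed the limit, 34 with small-subunit names (Rps) and 47 with large-subunit names (Rpl). The rows were thus chosen by their names and by their mean level over all libraries, which is given only as a description and was not tested. Just inside the limit lay Rpl32l, Rpl29 and Rps10, with means of 1.10, 3.99 and 6.99 CPM, and just outside it lay Rps12l1, Rpl39l and Rpl3l, with 0.258, 0.149 and 0.0713 CPM. The other row outside the limit, Rpl10l, had a mean of 0 CPM. In GENCODE release M21, 76 of the 81 rows are protein coding and 5 are pseudogenes (Rps4l, Rpl32l, Rpl6l, Rps3a2 and Rps3a3). RefSeq lists Rpl32l as a coding gene.

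The groups were male urethra, female urethra, male bladder and female bladder, with 4 libraries each. All were untreated wild-type CD-1 embryos, an outbred stock, at embryonic day 16.5, and the urethra was the pelvic part. Each replicate number marks 1 of 4 litters, and each library is a pool of the embryos of 1 sex from 1 litter, so variation between single embryos was not measured. The study compared the bladder and urethral compartments, and the pools of each sex also permit a comparison of males and females. Tissue had been held in trypsin on ice and parted from its epithelium with forceps, and both tissues went through the same handling before lysis.

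Ribosomes translate every messenger RNA of a cell. The small subunit reads the message and the large subunit joins the amino acids, and each is built in the nucleolus from ribosomal RNA and ribosomal proteins. Messages for ribosomal proteins typically begin with a run of pyrimidines, the terminal oligopyrimidine motif, through which mTORC1 and the RNA-binding protein LARP1 control their translation. In growing tissue these messages are among the most abundant, and loss of a single copy of several of these genes gives anaemia and malformations in people and skeletal, pigment or growth defects in mice.

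The starts of 8 genes are printed because they lie at the 2 ends of the range of tissue differences below. The RefSeq promoter table (GRCm38.p6) held 58 of the 81 genes. Each line gives 30 bases before and 20 bases after a start annotated by RefSeq, on the gene's strand. Capitals mark a C followed by at least 4 C or T that begins within 5 bases of that start, on either side. Where a gene had several starts, a start with such a run was printed if present. These starts can lie apart from those of the counted rows, which begin at 152325742 for Rpl22 and 44407139 for Rps25. The first 4 have the lowest urethra-to-bladder ratios among the starts read for these genes, at chr9:66946056-66946105 (Rps27l, plus strand), chr7:45128726-45128775 (Rpl13a, minus strand), chr7:99483690-99483739 (Rps3, minus strand) and chr9:44407684-44407733 (Rps25, plus strand). The last 4 have the ratios nearest to 1 among those starts, at chr9:64173357-64173406 (Rpl4, plus strand), chrX:102189372-102189421 (Rps4x, minus strand), chr5:121204471-121204520 (Rpl6, plus strand) and chr4:152324406-152324455 (Rpl22, plus strand).
Rps27l: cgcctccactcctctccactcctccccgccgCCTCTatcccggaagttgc
Rpl13a: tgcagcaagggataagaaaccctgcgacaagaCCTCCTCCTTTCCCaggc
Rps3: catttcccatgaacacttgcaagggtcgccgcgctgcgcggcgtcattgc
Rps25: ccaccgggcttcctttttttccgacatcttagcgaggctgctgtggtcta
Rpl4: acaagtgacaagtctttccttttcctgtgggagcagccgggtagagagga
Rps4x: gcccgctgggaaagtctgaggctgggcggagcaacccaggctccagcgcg
Rpl6: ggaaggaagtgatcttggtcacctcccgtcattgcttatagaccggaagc
Rpl22: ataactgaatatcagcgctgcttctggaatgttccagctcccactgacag

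Such a pyrimidine run lay at a start of 29 of the 58 genes (50%), against 21.2% of 27025 genes in the same table. The base before that C was not checked, so a counted run can be the tail of a longer one, as at Rpl34. Runs with no such C within 5 bases of the start were not counted, such as those in the printed lines of Rps25 and Rpl4. A gene counted as without the run can thus still have one nearby. A match at any start of a gene counted, here and for the letters below. Among 7 of the 8 genes with the lowest tissue ratios the run was at 4 starts, and among 6 of the 8 with ratios nearest to 1 it was at 1 start. Over windows of 250 bases before to 50 after the start, read on both strands, CCGGAAG, letters of an ETS-family site, was in 23 of 58 (39.7%, against 9.93% of all genes in that table). The YY1-type letters AAGATGG were in 10 (17.2%, against 7.28%), and the E-box CACGTG, the letters bound by Myc, in 6 (10.3%, against 8.09%). GGGCGG, the letters of a GC box, were in 35 (60.3%, against 38.2%), and TATAAA in 7 (12.1%, against 15.7%). None of these motifs contains another, and a match is not a shown binding site. The median log2 fold change of urethra over bladder, described next, was −0.66 for the 29 genes with a counted pyrimidine run. It was −0.61 for the 29 genes without a counted run.

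Ribosomal protein messages took a smaller part of the urethral than of the bladder libraries. The 81 rows held 3.15, 3.05, 2.85 and 2.95% of counts in male urethra and 3.20, 2.96, 2.73 and 2.48% in female urethra, against 4.12, 4.00, 3.45 and 4.36% in male bladder and 4.44, 4.42, 3.51 and 4.05% in female bladder, each in the order of litters 1 to 4. All 8 urethra libraries lay below all 8 bladder libraries, with 2.92% ± 0.236 in urethra and 4.05% ± 0.385 in bladder (SD, n = 8 each), a difference of −1.13 percentage points. In both sexes litter 3 had the lowest bladder share, and the lowest urethra share was that of litter 4 in females. Leaving out 1 litter at a time gave −1 (without litter 4) to −1.27 points (without litter 3).

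**Figure D1:**
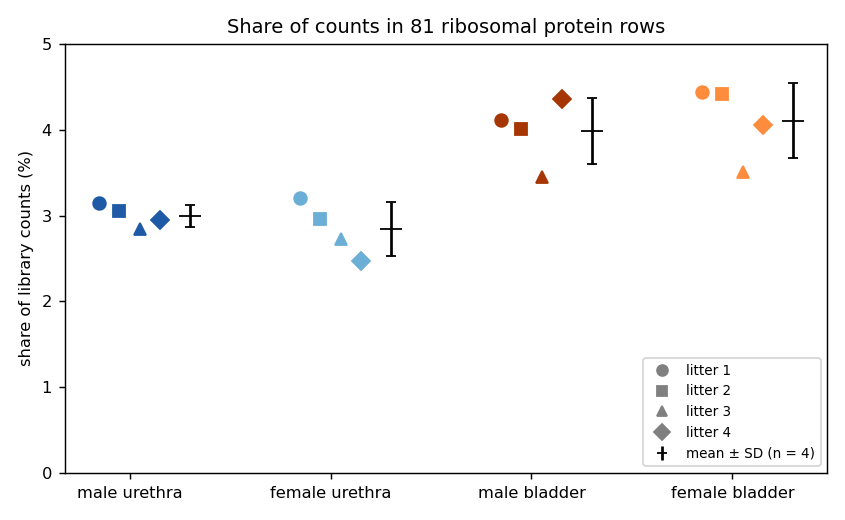
The y axis gives the share of a library's counts in the 81 ribosomal protein rows (%), by group, with marker shape for the litter and bars for the mean and SD of 4 libraries. The 8 urethra libraries lie between 2.48 and 3.20%, all under the 8 bladder libraries at 3.45 to 4.44%.

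Library totals were 24447435 to 29698009 counts in urethra and 18577097 to 22293812 in bladder, so depth differed in step with tissue. The 95% Wilson interval of a share is narrow at this depth, for example 2.470 to 2.481% in female urethra of litter 4, and covers counting error only. Of the members' counts, small-subunit rows took 43.4% ± 0.493 in urethra and 45.1% ± 0.710 in bladder (SD, n = 8 each), with the highest urethra library at 43.98% and the lowest bladder library at 43.95%. The 295 rows named as ribosomal protein pseudogenes by the ending -ps took 0.188% ± 0.0115 of counts in urethra and 0.262% ± 0.0289 in bladder (SD, n = 8 each), so reads placed there were few and were also a smaller share in the urethra.

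Gene by gene, 80 of the 81 rows passed an adjusted p of 0.05 as lower in urethra and 0 as higher (edgeR quasi-likelihood test with Benjamini-Hochberg adjustment over 18254 tested genes, mean of both sexes). All 81 had passed the filter on low counts. Over all tested genes 38.5% were lower and 36.5% higher, so a call as such is common in this comparison. The median log2 fold change of the 81 rows was −0.61, a urethral level 65.6% of that in the bladder, against −0.03 over all tested genes. The middle part of the rows, between the quartiles, ran from −0.77 to −0.47, and the range from −1.31 to −0.30. The row that missed the threshold was Rps3a2, at −0.42 ± 0.189 (log2, SE, adjusted p = 0.0546), and with a replicate block by litter and sex it was called lower as well, at −0.43 (adjusted p = 1.83e-06). Every row was lower in the urethra than in the bladder pool of its litter and sex in 8 of 8 pairs. The share of all tested genes lower in 8 of 8 pairs was not determined, so this count has no background beside it. The highest urethra library lay below the lowest bladder library in 69 of 81 rows, against 20.3% of all tested genes. The 12 rows whose tissues overlapped were Rpl15, Rpl21, Rpl22, Rpl29, Rpl32l, Rpl35a, Rps10, Rps2, Rps3a1, Rps3a2, Rps3a3 and Rps4l. In bulk tissue fewer cells of a type and less RNA per cell cannot be told apart.

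**Figure D2:**
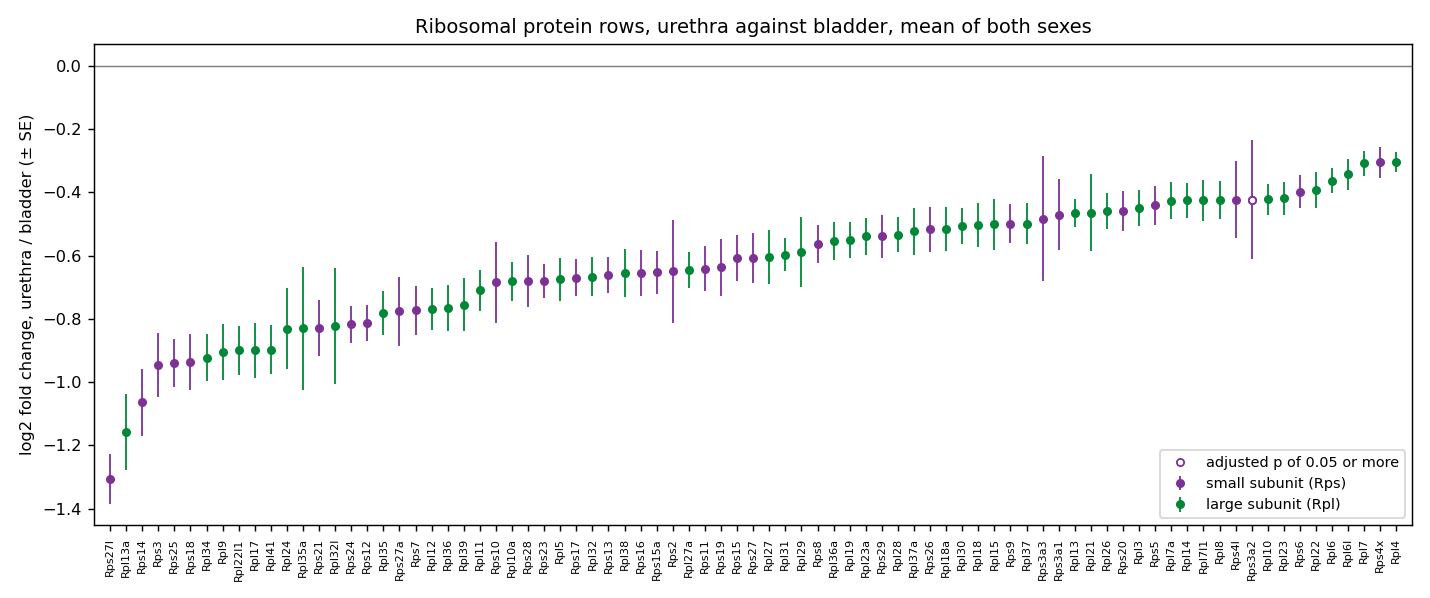
Each point is the log2 fold change of urethra over bladder (y axis, mean of both sexes) of 1 of the 81 rows, with its standard error, coloured by subunit and sorted from lowest to highest, and an open point has an adjusted p of 0.05 or more. All points lie below 0, from −1.31 for Rps27l to −0.30 for Rpl4.

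Both subunits took part. Of the small-subunit rows 33 of 34 fell, with a median log2 fold change of −0.65, and of the large-subunit rows 47 of 47, with a median of −0.55. The 76 coding genes were all lower (median −0.62), and 4 of the 5 pseudogene rows were (median −0.42). The 8 proteins around the exit of the nascent-chain tunnel of the large subunit had a median of −0.57 and all fell. So did all 20 genes mutated in Diamond-Blackfan anaemia, an inherited failure of red cell production (median −0.65). These counts describe lists drawn with earlier results of these data known, at a background of 38.5% lower calls.

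The lowest ratio was that of Rps27l, a paralogue of Rps27 that p53 can induce, at position 66946086 to 66949516 of chromosome 9 on the plus strand. Its CPM had a lowest value of 59.9, a median of 68.6 and a highest of 77.7 in urethra, against 132, 170 and 194 in bladder. The tissues were well apart, and the log2 fold change was −1.31 ± 0.0789 (SE, adjusted p = 2.36e-10). Rpl13a, which besides its place in the large subunit can silence translation of inflammatory messages, followed at −1.16 ± 0.120 (SE, adjusted p = 2.54e-07). It ran from 73.5 to 106 CPM in urethra (median 92.0) and from 142 to 259 in bladder (median 220), again without overlap. Of its exon bases 35.4% are shared with small nucleolar RNA and other genes on the same strand, whose reads were not counted for it.

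Rps14, deleted in the 5q- syndrome of bone marrow, was at −1.06 ± 0.105 (SE, adjusted p = 1.27e-07). Rps3, a protein at the messenger RNA entry of the small subunit, had 824 to 1148 CPM in urethra (median 1054) and 1521 to 2398 in bladder (median 2059), a log2 fold change of −0.95 ± 0.102 (SE, adjusted p = 3.42e-07). The remaining genes of the lowest 8 were Rps25, needed for some forms of internal initiation, Rps18, Rpl34 and Rpl9, at −0.94 to −0.91. All 8 kept their tissues apart, and 5 of them are small-subunit genes.

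The ratios nearest to 1 were those of Rpl4, which lines the exit tunnel, the X-linked Rps4x and Rpl7. Rpl4 had 1104 to 1221 CPM in urethra (median 1130) and 1314 to 1481 in bladder (median 1420), so even here the tissues did not overlap. Its log2 fold change was −0.30 ± 0.0323 (SE, adjusted p = 2.24e-07). Rps4x was at −0.31 ± 0.0494 (SE, adjusted p = 2.94e-05) and Rpl7 at −0.31 ± 0.0393 (SE, adjusted p = 1.98e-06). Next came the pseudogene row Rpl6l, then Rpl6, Rpl22, Rps6, which the S6 kinases of the mTORC1 pathway phosphorylate, and Rpl23, a binder of the p53 regulator Mdm2, from −0.34 to −0.42. Under a cyclic loess scaling on abundance Rpl4, Rps4x and Rpl7 were no longer called. With a correction for gene length Rps4x was not called and Rpl6l lay at 0.05.

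**Figure D3:**
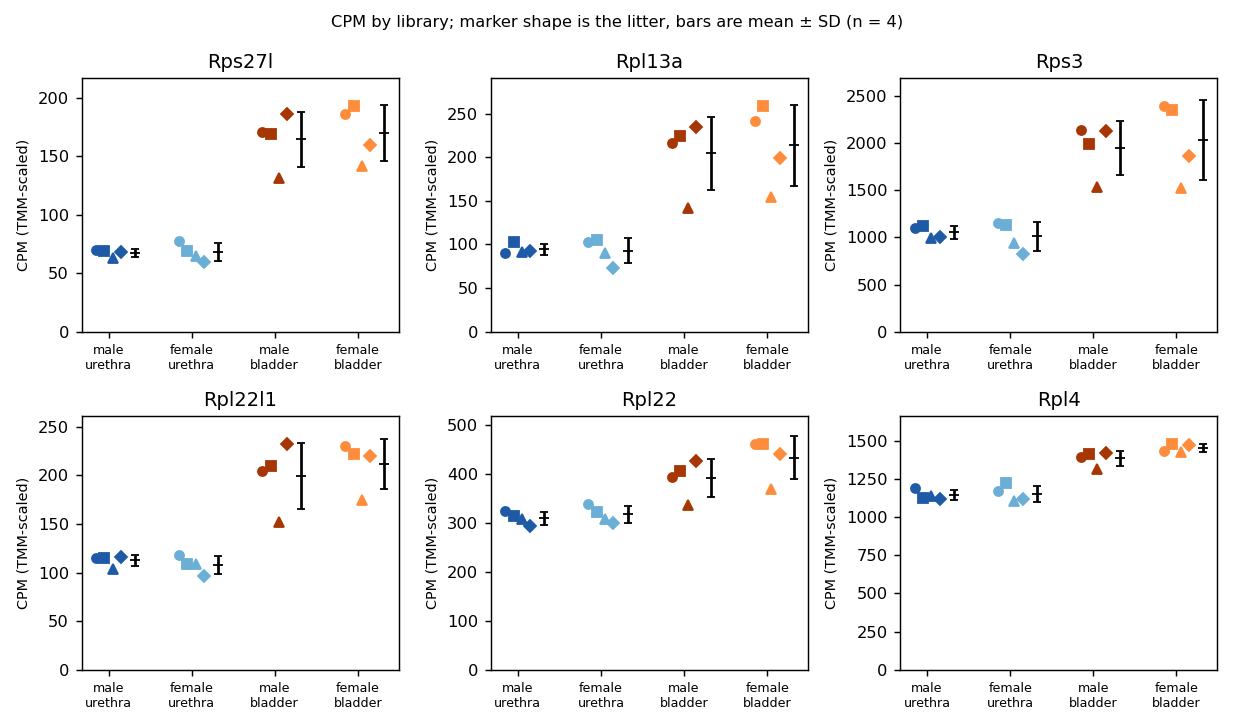
CPM (y axes, TMM-scaled) of 6 genes in the 16 libraries by group, with marker shape for the litter and bars for the mean and SD of 4 libraries. Rps27l, Rpl13a, Rps3 and Rpl22l1 show wide gaps between urethra and bladder, Rpl4 a narrow one, and Rpl22 overlaps.

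Relative to the total of the members' own counts, the rows did not all change by the same ratio. On this scale 21 of 81 rows were lower in the urethra (9 Rps, 12 Rpl) and 23 were higher (5 Rps, 18 Rpl), while 37 did not pass the threshold (edgeR quasi-likelihood test with Benjamini-Hochberg adjustment). Since the scale sets the members to no change on balance, 11.7% of all genes were lower and 70.8% higher on it. Rps27l was at −0.69 ± 0.0468 (log2, SE, adjusted p = 9.72e-10) and Rpl4 at 0.30 ± 0.0575 (SE, adjusted p = 1.42e-04). Rps14 at −0.45 and Rpl13a at −0.54 were also lower, and Rps4x at 0.30 and Rpl7 at 0.29 higher, than the members as a whole.

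Pairs of paralogues were compared per length, as counts per exon base. Rpl22l1 amounted to 47.0 to 58.0% of Rpl22 in urethra (median 51.4) and to 66.3 to 79.9% in bladder (median 73.3), without overlap. Rpl22l1, at 28805436 to 28807424 of chromosome 3, had a log2 fold change of −0.90 ± 0.0785 (SE, adjusted p = 2.06e-08), and Rpl22 one of −0.39 ± 0.0555 (SE, adjusted p = 6.62e-06). Relative to the members' total Rpl22l1 was lower (−0.29, adjusted p = 7.63e-05) and Rpl22 higher (0.22, adjusted p = 1.60e-04).

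Rps27l amounted to 43.8 to 51.7% of Rps27 per length in urethra (median 47.5) and to 72.5 to 82.2% in bladder (median 76.4). Rps27 itself had a log2 fold change of −0.61 ± 0.0778 (SE, adjusted p = 2.18e-06), so both genes fell and the paralogue was the lower of them. Rpl7l1, a relative of Rpl7 with a part in ribosome assembly, was at 14.3% ± 0.659 of Rpl7 in urethra and 15.5% ± 1.28 in bladder (SD, n = 8 each), a gap within the bladder SD. Rps4l was at 4.63 to 6.24% of Rps4x in urethra and 4.19 to 7.46% in bladder. Its own log2 fold change was −0.42 ± 0.122 (SE, adjusted p = 0.00499), and Rpl7l1 was at −0.42 ± 0.0646 (SE, adjusted p = 1.50e-05).

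Rpl5 and Rpl11 form a particle with 5S ribosomal RNA that binds Mdm2 when ribosome assembly stalls. Rpl5 had 652 to 807 CPM in urethra (median 762) and 935 to 1325 in bladder (median 1239), and fell by 0.68 ± 0.0686 on the log2 scale (SE, adjusted p = 1.29e-07). Rpl11 had 378 to 449 CPM in urethra (median 418) and 550 to 790 in bladder (median 696), and fell by 0.71 ± 0.0649 (SE, adjusted p = 3.51e-08). The 2 genes thus stood close to the median of the members.

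Genes with a mouse mutant of known phenotype also lay near that median, at −0.65 over 7 genes, all lower. Rpl38, whose loss alters translation of Hox messages and the axial skeleton in the Tail-short mouse, had 87.0 to 114 CPM in urethra (median 103) and 133 to 186 in bladder (median 164). Its log2 fold change was −0.66 ± 0.0749 (SE, adjusted p = 5.64e-07). Rpl24, mutated in the Belly spot and tail mouse, had 9.17 to 15.3 CPM in urethra (median 13.8) and 16.7 to 30.4 in bladder (median 24.3), a log2 fold change of −0.83 ± 0.128 (SE, adjusted p = 1.87e-05). For Rpl24, 47% of exon bases are shared with another gene on the same strand, so its count is a part of its reads. Rps7 stood at −0.77, Rpl27a, mutated in the Sooty foot ataxia mouse, at −0.65, Rps19 and Rps20, both found in mice with dark skin, at −0.64 and −0.46, and Rpl29, needed for normal body size, at −0.59.

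Levels between genes can be compared only per length, here as TPM, which divides the counts by the file's exon lengths and then scales each library to the same sum. Those lengths take in all annotated exon bases of a gene and not 1 transcript, so the order of genes depends on the annotation. They were 383 bases for Rpl36 and 630 for Rps15, against 4483 for Rps3, which had the highest mean CPM of the members (1489) but rank 19 by TPM. The highest were Rps15, Rps3a1, Rpl36, Rpl8 and Rpl4. Rps15, in the head of the small subunit, averaged 2614 ± 101 TPM in male urethra, 2530 ± 223 in female urethra, 3095 ± 277 in male bladder and 3283 ± 287 in female bladder (SD, n = 4 each). Rps3a1 followed with 2557 ± 210 TPM in male urethra, 2006 ± 407 in female urethra, 2742 ± 191 in male bladder and 2376 ± 482 in female bladder (SD, n = 4 each). These neighbours differed by less than the SD in male urethra, and the order among the leading 5 is thus not firm. The median member, over all libraries, was at 741 TPM, and 76 of 81 were over 100 TPM.

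The lowest were Rpl34, Rpl24, Rpl29, Rps10 and Rpl32l. Rps10, for example, averaged 9.32 ± 0.713 TPM in male urethra, 8.45 ± 1.39 in female urethra, 12.6 ± 2.80 in male bladder and 10.7 ± 2.27 in female bladder (SD, n = 4 each). Of its exon bases 20.6% are shared with RPS10-NUDT3. Reads of a gene with near-identical copies elsewhere were dropped where they mapped to several places, so all TPM here are levels of uniquely placed reads and not of the message. The part of such dropped reads in these low values was not tested. Release M21 names 0 -ps pseudogenes after Rpl24 and Rpl32l. It names 24 each after Rpl31 and Rps12, which averaged 810 and 492 TPM over all libraries.

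Rps3a is a gene with such copies in the table. Its parent gene Rps3a1 lies at 86137940 to 86142702 of chromosome 3, and the pseudogene rows Rps3a2 and Rps3a3 on chromosomes 14 and 13. Counts on the 2 pseudogene rows made up 13.5, 17, 22.1 and 20.2% of all 3 rows in male urethra and 24.9, 40.7, 40.2 and 17.3% in female urethra, against 16.2, 17.4, 22.6 and 19.7% in male bladder and 23.2, 38.9, 39.5 and 17.5% in female bladder (litters 1 to 4). The share was nearly the same in both tissues of a pool, within 2.74 percentage points in all 8, and varied widely between pools. CD-1 is outbred, and whether alleles that differ between embryos move these reads between rows was not tested. Summed over the 3 rows, urethra stood at 61.4 to 80.5% of the bladder of its pool, lower in 8 of 8.

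**Figure D4:**
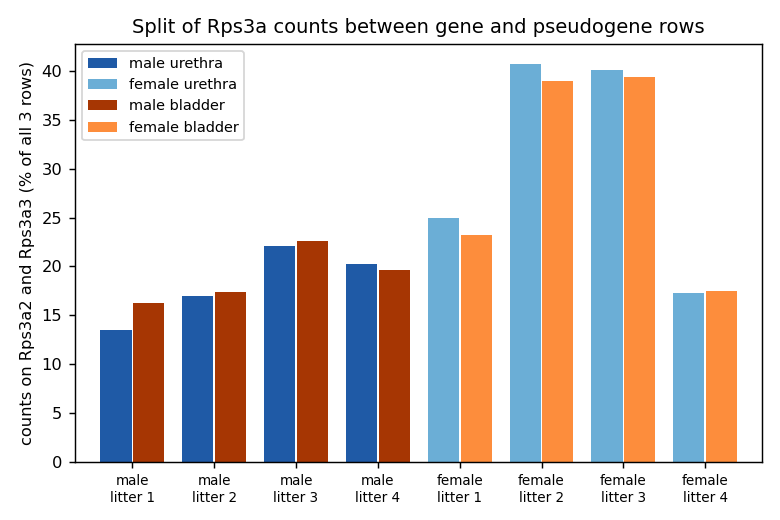
Bars give the counts on Rps3a2 and Rps3a3 as a percentage of the counts on Rps3a1, Rps3a2 and Rps3a3 (y axis) for urethra (blue) and bladder (orange) of each pool of embryos. Urethra and bladder bars of a pool stand at almost the same height, while pools run from 13.5 to 40.7% in urethra.

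The tissue difference was present in each sex. In males 79 of 81 rows were lower in the urethra and 0 higher (edgeR quasi-likelihood test, 32.6% of all tested genes lower and 31.4% higher), with a median log2 fold change of −0.55, and Rps3a2 and Rps3a3 missed the threshold. In females 78 were lower and 0 higher (33.1% of all tested genes lower and 32.6% higher), with a median of −0.67, and Rps3a2, Rps3a3 and Rps4l missed it. With the replicate block by litter and sex 81 rows were lower in each sex, a count given without the share of all tested genes in that fit. The log2 fold change was more negative in females in 74 of 81 rows. A test of that difference itself, the interaction of tissue and sex, called 0 rows, at a background of 0.537% higher and 0.131% lower, and 0 rows had an unadjusted p under 0.05. DESeq2's Wald test likewise called 0. The lowest adjusted p of the interaction was 0.757 and the median estimate 0.11 on the log2 scale.

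Between the sexes within a tissue 0 rows were called, with edgeR and with DESeq2. In urethra the background was 3.97% higher and 2.42% lower in males, the members' median log2 fold change of male over female was 0.04, and 3 rows had an unadjusted p under 0.05. These were the Rps3a rows, with Rps3a1 at 0.34 ± 0.158, Rps3a2 at −0.63 ± 0.267 and Rps3a3 at −0.69 ± 0.280 (SE, adjusted p = 0.252, 0.208 and 0.187). With litter as a replicate block Rps3a1 was called higher in males (0.36, adjusted p = 0.0231). Without female urethra of litter 4, Rps3a2 (−0.85, adjusted p = 0.0438) and Rps3a3 (−0.92, adjusted p = 0.0381) were called lower. The changing split of reads between these rows, given above, moves with the same pools, and its part in these values was not tested.

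In bladder the background was 0.247% higher and 0.334% lower in males, the members' median was −0.06, and 3 rows had an unadjusted p under 0.05 (Rpl31 at −0.16, Rps3a2 at −0.64 and Rps3a3 at −0.66). The 4 X-linked genes, Rpl10, Rpl36a, Rpl39 and Rps4x, lay between −0.08 and 0.07 for male over female in both tissues, with standard errors of 0.0685 to 0.119. In the tissue comparison they fell by 0.42, 0.55, 0.76 and 0.31 on the log2 scale.

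Other ribosomal proteins that the name pattern leaves out had the same direction. Of 7 such genes 7 were lower in the urethra (median −0.58), among them the stalk proteins Rplp0, Rplp1 and Rplp2 at −0.49, −0.62 and −0.56, and the laminin-receptor-like small-subunit protein Rpsa at −0.58. Fau, made as a fusion with a ubiquitin-like part, was at −0.55, and Rpl36al and Rps27rt at −1.10 and −0.66. Rpl36al had only 0.642 to 1.22 CPM in urethra and 1.435 to 2.79 in bladder. With the correction for gene length the median of the 7 genes was −0.26, and Rps27rt was not called (−0.09, adjusted p = 0.144). Of 77 mitochondrial ribosomal protein genes, which serve the separate ribosome of that organelle, 75 were lower and 0 higher (median −0.50), beside 38.5% and 36.5% of all tested genes. Their called values ran from −1.41 for Mrpl33 to −0.15 for Mrps27, which lay at 0.02 under the length correction described below.

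Other parts of the translation apparatus are set beside the same background, in which 38.5% of all tested genes were lower and 36.5% higher. Of 30 initiation factor genes 20 were lower and 3 higher (median −0.16), from Eif3h at −0.68 to Eif1b at 0.20. Of 7 elongation factor genes 5 were lower, among them Eif5a at −0.73, and 1 was higher, the muscle and neuron isoform Eef1a2. It had 44.9 to 79.7 CPM in urethra (median 53.8), against 0.351 to 11.6 in bladder (median 1.33), a log2 fold change of 4.62 ± 0.440 (SE, adjusted p = 1.94e-07). Of 13 other genes whose messages carry the pyrimidine motif 10 were lower and 0 higher (median −0.28), from the ribosome-bound scaffold Rack1 at −0.69 to Vim at −0.16. The direction of Vim turned with the scaling, as it was called higher under cyclic loess (0.09, adjusted p = 0.0182) and was at −0.02 with library totals alone (adjusted p = 0.564).

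Genes that build ribosomes stood near the background in their median and their lower calls, while higher calls were rarer than in the background. Of 58, 24 were lower and 12 higher, against 38.5% lower and 36.5% higher over all tested genes, and their median of −0.03 was close to the −0.03 over all tested genes. Taf1d, of the RNA polymerase I initiation factor SL1, was the lowest at −0.86, and Heatr1, a factor of pre-ribosomal RNA transcription and processing, the highest at 0.38. Of 7 chaperones that escort single ribosomal proteins 4 were lower and 0 higher, from Pdcd2l at −0.49 to Grwd1 at −0.18. Under the length correction their median moved to −0.01, against −0.18 without it, and Grwd1 lay at 0.00 (adjusted p = 0.968).

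Of 24 genes of the mTORC1 and Myc pathways, which control ribosomal protein output, 13 were lower and 4 higher (median −0.16), at the background of 38.5% lower and 36.5% higher that also holds for the lists after it. Mycn, a Myc family transcription factor, had 32.02 to 54.1 CPM in urethra (median 44.0) and 8.11 to 13.8 in bladder (median 11.4), a log2 fold change of 1.93 ± 0.0934 (SE, adjusted p = 1.61e-11). Eif4ebp1, a translation repressor that mTORC1 inactivates, had 22.5 to 31.9 CPM in urethra (median 26.4) and 51.9 to 74.8 in bladder (median 66.6), at −1.25 ± 0.0794 (SE, adjusted p = 3.96e-10). Of 12 p53 target genes 6 were higher and 4 lower, near that background, from the apoptosis gene Bbc3 at 1.35 to Ccng1 at −0.70. Of 20 proliferation genes 16 were lower and 0 higher (median −0.53).

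Gene length moved with the tissue difference beyond the members, while a relation to abundance alone over all genes was not tested. Of 117 other genes with a mean of at least 100 CPM and under 1500 exon bases, 90.6% were lower in the urethra and 2.56% higher (median −0.63). Of all 2483 other genes with at least 100 CPM 46.2% were lower and 32.7% higher (median −0.07). Only the 81 members were taken out of these sets, so ribosomal proteins outside the name pattern were not removed. Members had a median exon length of 1739 bases, against 3854 over all tested genes. Across all 18254 genes the log2 fold change was higher for longer genes (Spearman's rho 0.276, Pearson's r 0.198), while across the 81 members rho was −0.02 and r 0.00. These points share libraries and are no replicates. After a lowess correction for gene length in each library 74 of 81 members were lower, with a median of −0.37. In that fit the median of the 117 short genes was −0.30 and that of all tested genes −1.11e-05. The shares of lower calls given above for other genes belong to the main fit, so the count of 74 has no background beside it. Rpl32l, Rpl6l, Rps3a1, Rps3a2, Rps3a3, Rps4l and Rps4x were then not called.

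**Figure D5:**
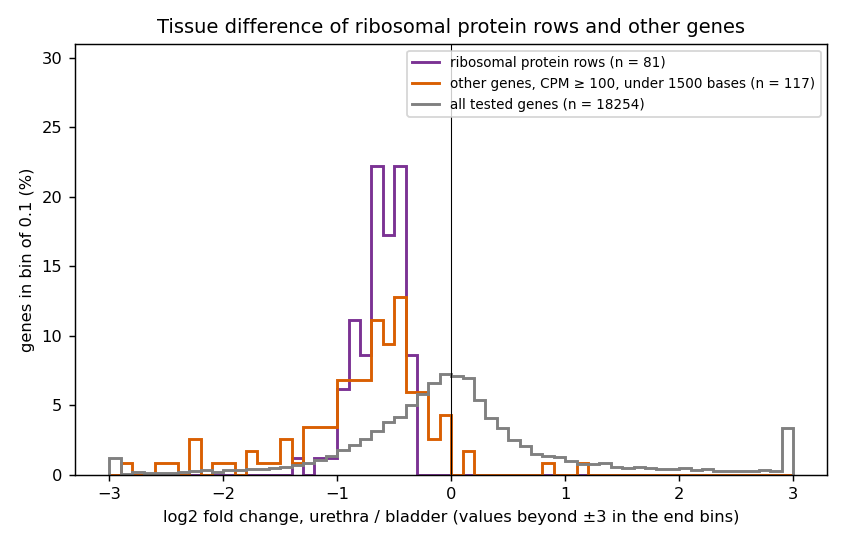
The x axis is the log2 fold change of urethra over bladder in bins of 0.1, and the y axis the percentage of genes of each set in a bin, for the 81 ribosomal protein rows, 117 other abundant short genes and all 18254 tested genes. The medians are −0.61, −0.63 and −0.03, so the 2 smaller sets lie to the left of the bulk of the genes.

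Marker levels differed between the tissues as well. All 12 mesenchyme markers were detected in each group, with summed levels of 11660 to 13340 CPM in urethra and 16110 to 19970 in bladder. Single markers went both ways, with 5 higher and 6 lower in the urethra, from −1.16 to 2.21 on the log2 scale (median −0.07). The 12 smooth muscle markers summed to 2122 to 2895 CPM in urethra and 16480 to 21460 in bladder, and 12 of 12 were lower in the urethra. The 12 neuron markers summed to 1824 to 2910 CPM in urethra and 49.7 to 469 in bladder, with 12 of 12 higher in the urethra.

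Of 24 epithelial markers 12 were lower and 3 higher, with sums of 1019 to 3874 CPM in urethra and 2522 to 6056 in bladder, and the lowest sums were in females. With the mean log2 CPM of the epithelial markers as a covariate 75 of 81 members were lower, with a median of −0.45. Without female urethra of litters 3 and 4, which had the lowest epithelial scores, 79 of 81 were lower and the median was −0.56. The background shares given above belong to the main fit and not to these fits, so the counts of 75 and 79 have no background beside them. Glia markers were higher in urethra in 8 of 8 and endothelial markers in 10 of 10. Of 12 skeletal muscle markers 8 were higher in the urethra and 4 lower, from −3.40 to 6.3 on the log2 scale (median 4.35). Their summed level was 345 to 548 CPM in urethra and 1618 to 2348 CPM in bladder. Des, which is in both muscle lists, was among the 4 lower, so this sum is not a level of skeletal muscle alone. Mesothelial markers were lower in 7 of 8 and red blood cell markers in 5 of 8 tested, and immune markers were higher in 5 and lower in 2 of 10. No marker of these lists was at 0 throughout a group. The part of muscle, nerve and the other cell types in the members' difference was not tested.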

How the data were processed

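The deposited table holds raw counts of read pairs per gene symbol. Per the submitters' processing notes, reads were aligned to GRCm38 with HISAT2 2.1.0 and counted with Subread 1.6.3. Per the file headers, featureCounts used strand setting 2 and left out multimapping reads and reads over several genes. Per the labels' protocols, libraries were poly(A)-selected, stranded and read as paired ends. For the GENCODE release, no name was given in the sources used here. Release M21 served for annotation, and 99.5% of its 53462 unique symbols in the table had the same start and end. A second deposited table was not used here.

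Counts were fitted with edgeR 4.0.16 in R 4.3.3 (TMM scaling, filterByExpr, robust quasi-likelihood fit, 4 groups, all 16 libraries), with Benjamini-Hochberg adjustment over 18254 genes and a threshold of 0.05. The method was tested on simulated data. The SE, an approximation, is the size of a log2 fold change over the root of its F statistic. CPM are TMM-scaled, except for the limit that chose the members. Alternatives included DESeq2 1.42.0, other scalings (limma 3.58.1 for cyclic loess), other filters, covariates and left-out libraries. The fit relative to the members' total counts, with its alternatives, was added after the data were seen.

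Per the labels, replicate numbers mark litters. Deviations from the group means correlated at 0.127 to 0.543 (8 of 8 pairs over 0.1) between urethra and bladder of a litter and sex, and at −0.0808 to 0.348 (5 of 8) between males and females. Fits with litter as a block were alternatives. The 2 sexes of a litter are not independent litters.

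The members and gene lists were chosen with earlier results of these data known. Named genes were the 8 called members with the highest and the 8 with the lowest log2 fold change, paralogues, 5S, X-linked and mouse mutant genes, called members of the sex and interaction tests, the 5 highest and lowest per length, the 3 nearest the limit on each side, 7 ribosomal proteins outside the name pattern (1 more is not reported here), and the highest and lowest called gene of each translation list. Rps27, Rpl31, Rps3a2, Rps3a3 and the rows listed as overlapping between tissues were named after their values were seen.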

Additional observations from a re-analysis of the deposited data

Results flagged for a closer look

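In 8 of 244 gene and group combinations 1 of 4 libraries stood far from the other three, as Dixon's ratio of its gap to the group's whole range was above the 95% critical value for 4 samples. Chance alone flags about 1 in 20. In male urethra Rpl22l1 (ratio 0.908) had 104 CPM in 1 library and 115 to 116 in the others, Rpl32l (0.849) had 0.489 against 0.819 to 0.878, and Rpsa (0.854) had 1101 against 852 to 888. In female urethra Vim (0.840) had 794 CPM against 860 to 873. In male bladder Rpl6 (0.879) had 540 CPM against 620 to 631, and Mrps27 (0.847) had 50.6 against 46.5 to 47.1. In female bladder Rpl5 (0.857) had 1040 CPM against 1284 to 1325, and Rpl36a (0.833) had 261 against 311 to 321.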

How the results depend on the processing

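Over 32 alternatives the members called lower in the urethra over both sexes numbered 74 to 81 and none was called higher. The share of all tested genes called in each alternative is not given beside these counts. The lowest count, 74, came with the length correction, and library totals alone gave 79 with a median of −0.47, where the median of all genes moved to 0.11. With litter as a replicate block 81 rows were lower, and with blocks by litter and sex 81 over both sexes and 81 in each sex. The replicate block added Rps3a2 over both sexes, Rps4l in females and Rps3a1 between the sexes in urethra, the block by litter and sex also Rps3a2 and Rps3a3 in each sex, and neither ended the call of a named gene. For male against female in urethra the block gave 1 called row, and leaving out 1 replicate gave 0 to 2. Relative to the members' total 44 rows were called, with 35 to 43 when a litter was left out and 48 with the replicate block. By CPM in place of per-length values only 1 of the 5 highest members was shared. Reversed values were Vim at 0.0897 under cyclic loess (called higher, adjusted p = 0.0182), and under the length correction Rpl6l at 0.0483 over both sexes, 0.0637 in females and 0.033 in males, Grwd1 at 0.00248 and Mrps27 at 0.0238. The cause was not tested. Among the members depth limits mainly Rpl32l and Rpl29, which rest on few counts. Outside the members this holds for Rpl36al and, in bladder, for Eef1a2.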
